A study of Mus musculus with 9 samples.

Results

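The 8 genes described here are the enzymes of cholesterol synthesis *Acat2*, *Hmgcs1*, *Idi1*, *Fdps*, *Sqle*, *Cyp51* and *Dhcr7* and the transcription factor *Srebf2*, read by gene symbol from a table of 56748 genes. Each symbol matched 1 gene, and all 8 had enough reads to be tested. Although the set was drawn up as synthesis and uptake genes, it holds no receptor or transporter, so uptake is covered by a separate list. Epididymal adipose tissue was taken from male C57BL/6J mice with the wild-type genotype. All of them had been fed a high-fat diet (HFD) for 8 weeks from 8 weeks of age. Tissue was collected at that point (Pre), or after a further 1 week (WL1) or 2 weeks (WL2) on a standard diet (SD), with 3 libraries per phase. The phases therefore differed in age as well as in diet, and no mice kept on HFD or on SD throughout were sequenced alongside them.

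Cells make cholesterol from acetyl-CoA. The early enzymes build the isoprenoid units that also feed coenzyme Q, dolichol and protein prenylation, and the later ones close and trim the sterol rings. SREBP2, the product of *Srebf2*, is held in the endoplasmic reticulum when membranes are rich in sterol and is cut free to switch on these genes when sterol runs short. In fat, adipocytes hold a large store of free cholesterol at the surface of the lipid droplet and take up much of their sterol from lipoproteins.

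SREBP2 binds sterol regulatory elements close to the start of its targets. Promoter windows from RefSeq on GRCm38.p6 were matched by symbol for 6 of the 8 genes, and *Sqle* and *Fdps* had none. The windows ran from 250 bases before to 50 bases after the annotated start. Gene positions given further on are those of the deposited table, which differ from GRCm38, so they cannot be set beside the positions of these windows. Both strands were searched for TCACCNCA, a common form of the element, and for TCACNCCAC, which can overlap it. The first was present in 3 of the 6 genes, against 4.42% of all 32851 windows. The second was present in 1 of the 6, against 1.24%. Those 3 stretches are shown because they hold the letters of the element, which are in capitals, and each ends before the first annotated transcript start.

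Hmgcs1 (chr13:119690101-119690350, plus strand): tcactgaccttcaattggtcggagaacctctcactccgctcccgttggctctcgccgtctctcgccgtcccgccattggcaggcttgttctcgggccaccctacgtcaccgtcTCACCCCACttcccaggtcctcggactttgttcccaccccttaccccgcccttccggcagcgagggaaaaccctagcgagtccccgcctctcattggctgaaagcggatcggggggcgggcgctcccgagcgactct
Cyp51 (chr5:4104747-4104947, minus strand): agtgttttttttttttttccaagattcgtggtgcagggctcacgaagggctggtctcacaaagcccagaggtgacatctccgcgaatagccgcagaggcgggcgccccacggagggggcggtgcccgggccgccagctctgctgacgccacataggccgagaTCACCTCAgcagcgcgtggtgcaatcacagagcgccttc
Srebf2 (chr15:82147019-82147180, plus strand): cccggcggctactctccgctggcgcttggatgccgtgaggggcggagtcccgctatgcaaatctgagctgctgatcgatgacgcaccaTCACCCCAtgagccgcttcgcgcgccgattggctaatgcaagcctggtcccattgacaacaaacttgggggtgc

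The match began 137 bases before the RefSeq start in *Hmgcs1*, 88 bases before it in *Cyp51* and 162 bases before it in *Srebf2*. CCAAT is the core of the NF-Y element that often neighbours a sterol regulatory element. It was found in 5 of the 6 genes, against 37.4% of all windows. GGGCGG, the core of the Sp1 element, was found in 6 of 6 genes, against 35.7% of all windows. A gene counted when any of its windows matched, and *Dhcr7* had 3 windows, whereas the shares are of single windows. Over the wider list of synthesis enzymes with a window, CCAAT was present in 15 of 17 and TCACCNCA in 3 of 17. A match of letters is a description of the sequence and was not related to binding.

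Counts were scaled for library size to CPM (counts divided by the effective library total and expressed on a common scale) with TMM factors and tested with edgeR over 18510 genes. A gene was called when its Benjamini-Hochberg adjusted p was under 0.05. Library totals ranged from 16434450 to 22729072 counts. The labels do not say whether the 3 libraries of a phase came from separate mice, so the p-values measure the spread between libraries. Adipocyte markers were abundant in every library, with 10 markers summing to 22050 to 38500 CPM, and each of the 6 epididymis markers had at most 3 reads over all libraries. WL2 replicate 1 stood apart from the other WL2 libraries in its macrophage markers, with a sum of 2672 CPM against 1099 and 1166 CPM, and Pre replicate 2 had the highest lymphocyte sum, 263 CPM.

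At 1 week of SD, 4 of the 8 genes were lower than at Pre, namely *Acat2*, *Hmgcs1*, *Cyp51* and *Idi1*, and none was higher. Of all genes tested, 7.29% were called in this comparison, 4.69% lower and 2.60% higher. At 2 weeks 5 of the 8 were lower than at Pre, the same 4 with *Dhcr7*, where 10% of all genes were called, 6.66% lower and 3.35% higher. The median log2 fold change of the 8 genes was -0.68 at WL1 and -0.82 at WL2, beside 0.02 and 0.01 over all genes tested. Both comparisons use the same Pre libraries. Because whole tissue was sequenced, fewer cells of a type and less RNA per cell cannot be told apart.

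**Figure D1:**
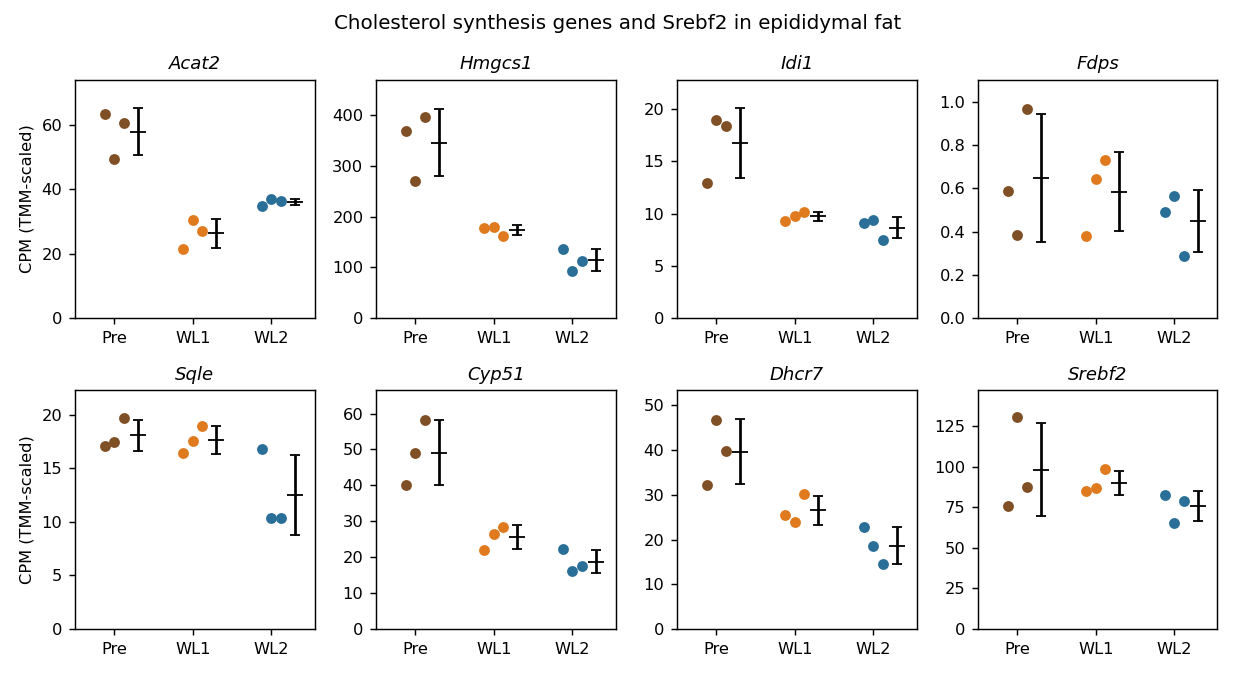
Level of each of the 8 genes by phase, in TMM-scaled CPM on an axis from 0 that differs between panels. Coloured points are single libraries and the black bar beside them is the mean with SD (n = 3); for *Hmgcs1* the means were 345.5, 173.8 and 114.2 CPM at Pre, WL1 and WL2.

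*Acat2* makes acetoacetyl-CoA in the cytosol, the entry to the pathway, and had the largest fall of the 8 genes at WL1. It lies on chromosome 17 (13161777 to 13179634, minus strand, ENSMUSG00000023832). Its level was 63.2, 49.5 and 60.5 CPM in the Pre libraries, 21.4, 30.4 and 26.9 CPM at WL1 and 34.9, 36.9 and 36.2 CPM at WL2. Every WL1 and WL2 library was below every Pre library, and every WL2 library was above every WL1 library. The log2 fold change was -1.14 ± 0.14 (SE, adjusted p = 0.0018) at WL1, a 2.20-fold lower level. At WL2 it was -0.68 ± 0.14 (adjusted p = 0.015), and this call was lost without WL2 replicate 2 or 3. From WL1 to WL2 the difference was 0.45 on the log2 scale (95% interval 0.13 to 0.77, adjusted p = 0.10). *Acat2* was thus the only one of the 8 genes with a positive value between those phases, and the difference did not pass the edgeR threshold.

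*Hmgcs1* joins acetoacetyl-CoA with a further acetyl-CoA to make HMG-CoA, from which mevalonate is formed. It lies on chromosome 13 (120151915 to 120169796, plus strand, ENSMUSG00000093930). The Pre libraries held 369, 271 and 396 CPM. The WL1 libraries held 178, 181 and 163 CPM and the WL2 libraries 136, 93.6 and 113 CPM, so the 3 phases did not overlap with one another. *Hmgcs1* was lower by -0.99 ± 0.17 (SE) on the log2 scale at WL1 (adjusted p = 0.0087). At WL2 it was lower by -1.60 ± 0.17 (adjusted p = 0.00036), that is 3.025-fold below Pre. The step from WL1 to WL2 was -0.61 (95% interval -0.98 to -0.23, adjusted p = 0.073) and was called only in some of the other analyses, among them the fit without WL2 replicate 1.

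*Idi1* converts isopentenyl diphosphate to its isomer so that isoprenoid chains can be built. It lies on chromosome 13 (8935537 to 8942487, plus strand, ENSMUSG00000058258). Its level was 12.9, 19.0 and 18.4 CPM at Pre, 9.33, 9.73 and 10.2 CPM at WL1 and 9.08, 9.40 and 7.52 CPM at WL2. Neither later phase overlapped with Pre, while WL1 and WL2 overlapped with each other. The log2 fold change was -0.78 ± 0.17 (SE, adjusted p = 0.024) at WL1 and -0.95 ± 0.17 (adjusted p = 0.0071) at WL2. The call at WL1 was lost in 5 of the 9 fits that left out 1 library (without Pre replicate 2 or 3, or without any 1 of the WL1 libraries), whereas the call at WL2 was kept in all 9.

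*Fdps* makes farnesyl diphosphate, where the sterol and non-sterol branches part. In these tables it lies on chromosome 3 (89000895 to 89009266, minus strand, ENSMUSG00000059743) and had 38 reads in the 3 Pre libraries together, 34 at WL1 and 24 at WL2. *Gm43738*, a protein-coding model on the same strand, covers 89.7% of *Fdps* and had 0 reads in all 9 libraries. No source used here says how reads shared by both models were counted, so the level of *Fdps* is uncertain. At between 0.289 and 0.969 CPM, a change was not detectable, with a log2 fold change at WL2 of -0.53 (95% interval -1.71 to 0.65, adjusted p = 0.56).

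*Sqle* oxidises squalene in the first oxygen-dependent step of sterol synthesis and limits the rate of the late pathway. It lies on chromosome 15 (59186926 to 59203041, plus strand, ENSMUSG00000022351). Its level was 17.1, 17.4 and 19.7 CPM at Pre and 16.4, 17.6 and 18.9 CPM at WL1. At WL2 replicate 1 stayed in that range with 16.8 CPM, and both other libraries had 10.4 CPM. The log2 difference from Pre was -0.04 at WL1 (95% interval -0.45 to 0.38, adjusted p = 0.93) and 0.061 when only library totals were used for scaling. At WL2 it was -0.53 (95% interval -0.95 to -0.11, adjusted p = 0.11). Without WL2 replicate 1 the value at WL2 was -0.80 and was called. Thus at WL1 the interval for *Sqle* left out a fall of the size seen for *Acat2*, *Hmgcs1* or *Cyp51*.

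*Cyp51* removes the 14-alpha methyl group of lanosterol. It lies on chromosome 5 (4131145 to 4154746, minus strand, ENSMUSG00000001467), where 0.703% of its length is shared with *Akap9* on the other strand. Its level was 40.1, 49.0 and 58.2 CPM at Pre, 21.9, 26.4 and 28.4 CPM at WL1 and 22.4, 16.2 and 17.5 CPM at WL2. All later libraries were below all Pre libraries. The log2 fold change was -0.94 ± 0.17 (SE, adjusted p = 0.012) at WL1 and -1.39 ± 0.18 (adjusted p = 0.00088) at WL2, a 2.63-fold lower level. The difference between WL1 and WL2, -0.45 (95% interval -0.84 to -0.06, adjusted p = 0.17), did not pass.

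*Dhcr7* reduces 7-dehydrocholesterol to cholesterol, and its substrate is also the precursor of vitamin D. It lies on chromosome 7 (143376882 to 143402147, plus strand, ENSMUSG00000058454). Its level was 32.2, 46.8 and 39.8 CPM at Pre, 25.5, 24.0 and 30.2 CPM at WL1 and 22.7, 18.6 and 14.5 CPM at WL2, with no overlap between phases. The log2 difference from Pre was -0.58 (95% interval -0.99 to -0.17, adjusted p = 0.088) at WL1 and -1.09 ± 0.19 (SE, adjusted p = 0.0055) at WL2.

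*Srebf2* encodes the regulator itself and is among its own targets. It lies on chromosome 15 (82031382 to 82089580, plus strand, ENSMUSG00000022463). Its level was 76.0, 131 and 87.9 CPM at Pre, 85.1, 86.9 and 98.6 CPM at WL1 and 82.8, 65.5 and 79.2 CPM at WL2. Pre replicate 2, the library with most lymphocyte signal, was the highest, and the part of lymphocytes in that value was not tested. The Pre range enclosed all WL1 libraries. The log2 difference was -0.12 (95% interval -0.53 to 0.29, adjusted p = 0.73) at WL1 and -0.37 (95% interval -0.78 to 0.04, adjusted p = 0.24) at WL2. Without Pre replicate 2 the value at WL1 turned to 0.14. The transcript of the regulator therefore did not pass the test where 4 or 5 enzymes did, although the intervals allow a fall of up to 0.78.

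Without a threshold on fold, all 3 libraries of the later phase were below all 3 Pre libraries for 5 of the 8 genes at WL1 (*Acat2*, *Hmgcs1*, *Idi1*, *Cyp51* and *Dhcr7*) and for 6 at WL2 (these and *Sqle*). The same was true of 13.9% and 15.8% of all genes tested. Between WL1 and WL2, 0 of the 8 genes were called by edgeR, 5 had an unadjusted p under 0.05 and DESeq2 called 2 (*Hmgcs1* lower and *Acat2* higher). Of all genes, 3.68% were called there, 2.37% lower and 1.31% higher. Between those phases 3 of the genes (*Hmgcs1*, *Dhcr7* and *Srebf2*) were lower without overlap and *Acat2* was higher without overlap, beside 16.4% and 13.9% of all genes.

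Per length, in FPKM (fragments scaled by transcript length and by library size), *Hmgcs1* was the most abundant of the 8 at Pre, with 70.6 ± 13.4 FPKM (mean ± SD, n = 3). *Acat2* followed with 21.3 ± 2.66 FPKM. Next came *Srebf2* with 12.8 ± 3.77 and *Cyp51* with 10.4 ± 1.95 FPKM, and they were the only neighbours in the order whose Pre libraries overlapped. *Dhcr7* had 6.40 ± 1.19 FPKM, *Idi1* 4.49 ± 0.90 and *Sqle* 3.06 ± 0.24, while *Fdps* was last with 0.145 ± 0.066. At WL1 *Srebf2* moved above *Acat2*, and *Sqle* above *Idi1*. At WL2 the order was again that of Pre.

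Most of the other synthesis enzymes were also called lower in the comparisons with Pre. Of 15 such genes 14 were tested, and 10 were called lower at WL1 and 10 at WL2, with none higher. Their median log2 fold change was -0.67 at WL1 and -0.86 at WL2. With the 7 enzymes above, 14 of 21 tested were lower at WL1 and 15 of 21 at WL2. Among all genes tested, 4.69% and 6.66% were called lower. The count at WL1 of 10 went down to 4 without WL1 replicate 1 or 2, to 5 without Pre replicate 1 and to 6 with the replicate number as a block.

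**Figure D2:**
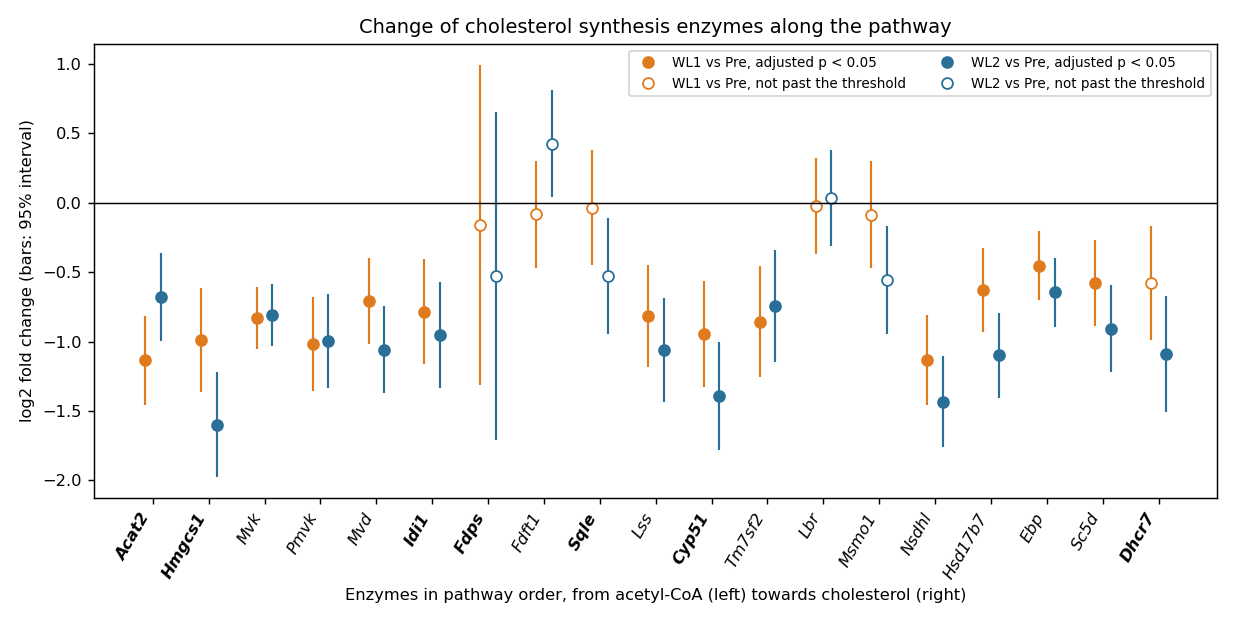
Log2 fold change against Pre of synthesis enzymes, in the order of the pathway from acetyl-CoA, with the 7 enzymes described above in bold type. Points are edgeR estimates, bars are 95% intervals and filled points passed the adjusted threshold; *Hmgcs1*, at the left, was at -1.60 at WL2, and *Fdft1* did not pass in either phase.

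*Nsdhl*, which acts in the removal of the C4 methyl groups, had 45.8, 46.3 and 57.3 CPM at Pre, 19.4, 21.9 and 27.0 CPM at WL1 and 17.7, 18.0 and 19.7 CPM at WL2. All later libraries were below all Pre libraries. Its log2 fold change was -1.13 (adjusted p = 0.0020) at WL1 and -1.43 (adjusted p = 0.00027) at WL2, and both calls were kept in all 20 other analyses. *Pmvk*, phosphomevalonate kinase, changed by -1.01 at WL1, and *Tm7sf2*, a sterol C14 reductase, by -0.86. The call of *Tm7sf2* was lost without Pre replicate 1, without WL1 replicate 1 or 2, and with the replicate block. At WL2 *Hsd17b7*, a reductase of the sterol ring, changed by -1.10 and *Lss*, which closes squalene epoxide into lanosterol, by -1.06.

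*Fdft1*, squalene synthase, named here after its values were seen, had a log2 difference of -0.08 at WL1 and 0.43 at WL2 and was not called in either.

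Genes of SREBP processing and turnover did not move together. Of 10 tested genes 2 were lower at WL1, and at WL2 the count was 2 lower and 1 higher. Among all genes, 4.69% were lower at WL1, and 6.66% were lower and 3.35% higher at WL2. *Insig1* encodes the protein that retains SREBP in the endoplasmic reticulum and is itself an SREBP target. It had 445, 280 and 293 CPM at Pre, 166, 142 and 171 CPM at WL1 and 104, 71.6 and 77.0 CPM at WL2, without overlap between phases. Its log2 fold change was -1.09 (adjusted p = 0.012) at WL1 and -2.01 (adjusted p = 0.00025) at WL2. The further change from WL1 to WL2 was -0.92 (adjusted p = 0.036) and was lost whichever WL1 library was left out, and without WL2 replicate 2 or 3.

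*Insig2*, the related retention protein, had 79.5, 80.0 and 78.6 CPM at Pre, 73.1, 78.9 and 64.6 CPM at WL1 and 101, 99.6 and 106 CPM at WL2. It was higher at WL2 than at Pre by 0.37 (adjusted p = 0.044), a call kept in 9 of 20 other analyses, and higher than at WL1 by 0.50 (adjusted p = 0.028), kept in 14. *Scap*, the escort of SREBP, differed from Pre by -0.16 at WL1 and -0.19 at WL2, neither past the threshold. *Srebf1*, whose main product in fat drives fatty acid synthesis, was lower by -0.92 (adjusted p = 0.0017) at WL1 and -0.88 (adjusted p = 0.0011) at WL2. The paralogs of the SREBP family thus differed in call, a difference that was not itself tested.

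**Figure D3:**
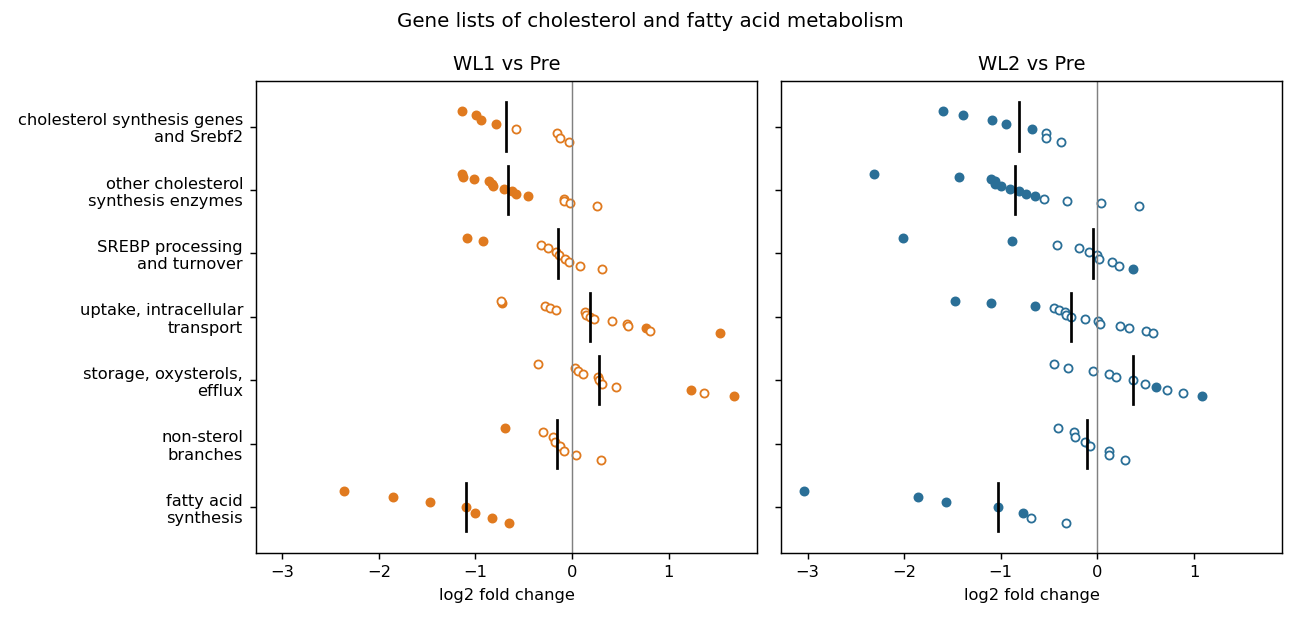
Log2 fold change against Pre of every tested gene, by gene list, at WL1 (left) and WL2 (right). Each point is a gene, filled when past the adjusted threshold, and the black line is the median of the list, which was -0.67 at WL1 for the other synthesis enzymes and 0.28 at WL1 for storage, oxysterols and efflux.

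On the uptake side, *Vldlr*, the VLDL receptor, had 144, 113 and 164 CPM at Pre, 84.6, 91.4 and 79.1 CPM at WL1 and 59.0, 67.4 and 69.6 CPM at WL2, without overlap between phases. It changed by -0.72 (adjusted p = 0.015) at WL1, a call lost without Pre replicate 1 or WL1 replicate 1 or 3, and by -1.10 (adjusted p = 0.00096) at WL2. *Mylip*, a ubiquitin ligase induced by oxysterols, differed from Pre by 0.22 and 0.50 and *Stard4*, a sterol carrier and SREBP2 target, by 0.14 and -0.45, none of them past the threshold.

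Of the 15 tested genes for uptake and intracellular transport, 1 was lower and 2 were higher at WL1, and 3 were lower and none higher at WL2. Among all genes, 4.69% were lower and 2.60% higher at WL1, and 6.66% and 3.35% at WL2. The 2 uptake and transport genes higher at WL1 act in the lysosome. *Lipa*, which frees cholesterol from lipoprotein cholesteryl esters, changed by 1.53 (adjusted p = 0.030) and *Npc1*, which exports that cholesterol, by 0.77 (adjusted p = 0.045). These calls were lost whichever Pre library was left out. That of *Lipa* was also lost whichever WL1 library was left out. That of *Npc1* was also lost without WL1 replicate 1 or 3 and without WL2 replicate 2 or 3. Over all 20 other analyses the call of *Lipa* was kept in 12 and that of *Npc1* in 8. *Npc2*, the partner of *Npc1*, was lower at WL2 by -0.65 (adjusted p = 0.030), a call kept in 13 of 20 other analyses. Between WL1 and WL2, *Npc2* was lower by -0.79 and *Stard3*, a late endosomal sterol carrier, by -0.70. The call of *Npc2* was kept in 14 of 20 other analyses and that of *Stard3* in 7, and the latter was lost with each of the 3 other scalings.

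Of 11 tested genes of storage, oxysterols and efflux, 2 were called higher at WL1 and 2 others at WL2, and none was called lower. The remaining 9 in each phase did not pass, and 2.60% and 3.35% of all genes were called higher in these comparisons. *Nceh1*, a cholesteryl ester hydrolase, changed by 1.68 (adjusted p = 0.038) at WL1 and *Abcg1*, an exporter of cholesterol to HDL, by 1.23 (adjusted p = 0.013). The call of *Nceh1* was lost whichever Pre or WL1 library was left out and kept in 12 of 20 other analyses, and that of *Abcg1* without Pre replicate 1. At WL2 *Apoe*, a lipoprotein component, was higher by 1.08 (adjusted p = 0.0024) and *Cyp27a1*, which makes 27-hydroxycholesterol, by 0.60 (adjusted p = 0.0082), and both calls were kept in all 9 fits without 1 library. *Abca1*, the other main exporter, differed by 0.06 at WL1 and -0.04 at WL2, the latter turning to 0.11 when only library totals were used for scaling.

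Macrophage markers moved with the genes that were higher at WL1. At WL1, 2 of 10 such markers were called higher, beside 2.60% of all genes. The sum of the 10 was 1038 to 1780 CPM at Pre, 2603 to 5147 CPM at WL1 and 1099 to 2672 CPM at WL2. In WL2 replicate 1, where that sum was highest within its phase, *Lipa* had 483 CPM against 205 and 194 CPM in the other WL2 libraries. Their part in the values of *Lipa*, *Npc1*, *Nceh1* and *Abcg1* was not tested. Adipocyte markers summed to 31160 to 38500 CPM at Pre, 22050 to 28270 CPM at WL1 and 28790 to 33040 CPM at WL2. Of these 10 markers 3 were called lower at WL1 and 2 at WL2, beside 4.69% and 6.66% of all genes. All 10 had a negative log2 difference from Pre at WL1, with a median of -0.49. At WL2 6 were negative and 4 positive. The adipocyte sum was lower in every WL1 library than in any Pre library. The sum of the 8 genes, of which *Hmgcs1* was the largest part, was 584 to 682 CPM at Pre, 358 to 377 CPM at WL1 and 251 to 326 CPM at WL2. The adipocyte sum was higher in every WL2 library (lowest 28790 CPM) than in any WL1 library (highest 28270 CPM), and *Fabp4* was its largest part. The sum of the 8 genes was lower in every WL2 library. Of the 10 adipocyte markers, 9 had a positive log2 difference between those phases, with 1 called higher. *Lep* had the only negative one, with means of 3050 CPM at WL1 and 1327 CPM at WL2, and was called lower. Hepatocyte markers summed to 10.8 to 87.9 CPM at Pre, 2.89 to 78.1 CPM at WL1 and 3.56 to 6.95 CPM at WL2, and mesothelium markers to 37.3 to 366, 44.3 to 218 and 233 to 658 CPM. Proliferation markers summed to 116 to 142 CPM at Pre, 167 to 208 CPM at WL1 and 73.3 to 125 CPM at WL2. Of these 6 markers 3 were called lower at WL2 than at WL1, beside 2.37% of all genes. Mitochondrial genes took 3.15% to 3.57% of the counts at Pre, 1.86% to 2.03% at WL1 and 2.28% to 2.88% at WL2, so every later library was below every Pre library. The part of these markers and of the mitochondrial share in the change of the synthesis genes was not tested.

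**Figure D4:**
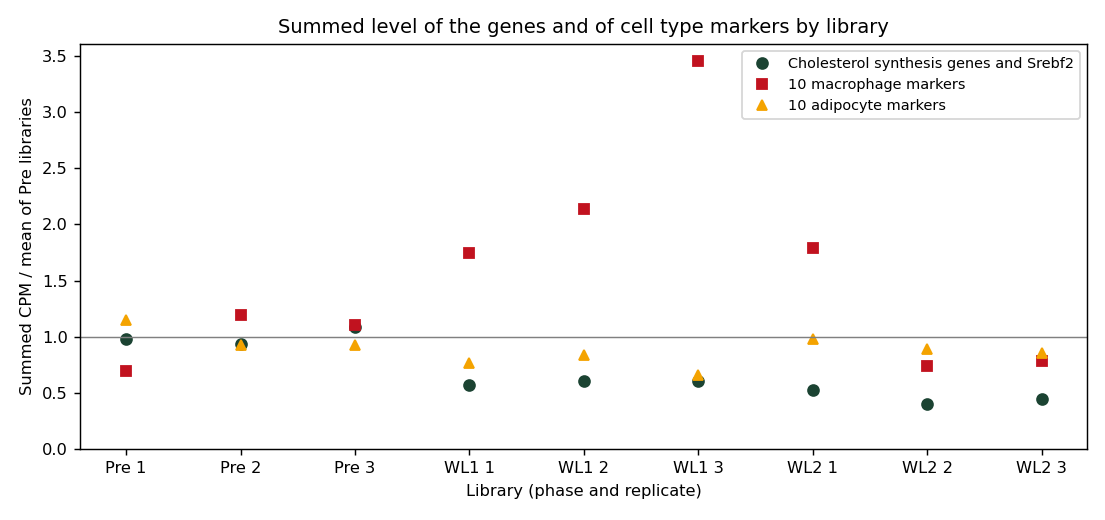
Summed CPM of the 8 genes, of 10 macrophage markers and of 10 adipocyte markers in each library, divided by the mean of the 3 Pre libraries. The 8 genes, summing to 251 to 326 CPM at WL2, were lowest in that phase, while the macrophage markers were highest at WL1 and in WL2 replicate 1 among the WL2 libraries.

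Other pathways that share a substrate or a regulator differed from each other in how many genes were called. Of 8 genes of the non-sterol branches, 1 was lower at WL1 and 0 were called at WL2, where edgeR gave 1 an unadjusted p under 0.05. Among all genes, 4.69% were called lower at WL1. *Coq2*, which attaches the isoprenoid tail of coenzyme Q, had 92.1, 98.8 and 80.8 CPM at Pre, 50.5, 60.5 and 56.8 CPM at WL1 and 81.1, 76.3 and 74.6 CPM at WL2. It was lower at WL1 by -0.70 (adjusted p = 0.0064) and higher at WL2 than at WL1 by 0.47 (adjusted p = 0.049). *Nus1*, a subunit of the enzyme that builds the dolichol chain, was lower at WL2 than at WL1 by -0.43 (adjusted p = 0.047). The call of *Coq2* at WL2 against WL1 was kept in 11 of 20 other analyses. That of *Nus1* was kept in 8 and was lost with each of the 3 other scalings and with the replicate block.

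Fatty acid synthesis genes, which draw on the same cytosolic acetyl-CoA, were lower in 7 of 7 at WL1 and 5 of 7 at WL2. The shares of all genes called lower were 4.69% and 6.66%. *Fasn*, fatty acid synthase, changed by -2.36 at WL1 and -3.04 at WL2, and *Acss2*, which makes acetyl-CoA from acetate, by -1.86 in both. *Scd1*, the stearoyl-CoA desaturase, changed by -1.47 and *Me1*, malic enzyme, by -1.10 at WL1, and at WL2 *Elovl6*, a fatty acid elongase, changed by -1.57 and *Me1* by -1.02. From WL1 to WL2 the median of this list was 0.00 and that of the 8 genes -0.41. *Acaca*, acetyl-CoA carboxylase, was higher at WL2 than at WL1 by 0.50 (adjusted p = 0.046), a call kept in 9 of 20 other analyses.

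Paralogs and copies of *Acat2* and *Idi1* were read beside them. *Acat1*, the mitochondrial thiolase, differed by -0.34 and -0.03, neither past the threshold. *Acat3*, a close copy of *Acat2*, held 158 reads in all 9 libraries together, and reads that match both copies may be split between them. *Idi2*, a copy of *Idi1*, was not tested, and the pseudogene *Idi1-ps1* had 44 reads in all libraries against 1989 for *Idi1*.

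Over 14630 genes with a mean of at least 1 CPM, the 5 whose log2 CPM over the 9 libraries lay closest to the mean profile of the 8 genes were *Pafah2*, *Vac14*, *Tubg1*, *Pla2g6* and *Hsd17b12*. The root mean square difference was 0.097 for *Pafah2*, a platelet-activating factor acetylhydrolase, and 0.114 for *Hsd17b12*, an enzyme of fatty acid elongation. The 8 genes themselves lay 0.150 to 0.366 from their own mean, and the median gene 0.466. *Pafah2* had 32.7, 31.9 and 35.3 CPM at Pre, 19.1, 19.8 and 23.2 CPM at WL1 and 17.8, 15.5 and 15.4 CPM at WL2.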

How the data were processed

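RNA of 9 libraries of epididymal adipose tissue, 3 per phase, was compared, with groups taken from the sample titles. The authors deposited raw read counts and FPKM for each gene and library. The submitters' processing notes name CASAVA, HISAT, HISAT2 and TopHat2, with GRCm38 and mm10, without versions. The coordinates of 0 of the 8 genes equalled those of GENCODE M21 on GRCm38, so gene positions are given as in the deposited table, without a build. No source used here gives the strand setting or the treatment of reads shared by genes.

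The quasi-likelihood test of edgeR 4.0.16 (R 4.3.3) was fitted with TMM scaling and no covariates to the 18510 genes that reached 0.5 CPM in 1 or more of the 9 libraries. Each of the 3 comparisons had its own Benjamini-Hochberg adjustment over all these genes. The 95% intervals are of each log2 fold change alone. Alternatives were 2 other filters, 3 other scalings, the replicate number as a block, DESeq2 1.42.0, limma 3.58.1 on log2(FPKM + 1), on log2(FPKM + 0.1) and on the latter without a filter, the compared phases alone, and each library left out in turn. The scripts were tested on simulated data. No pair of libraries within a phase agreed within counting noise (chi-square over its degrees of freedom, 9.13 to 48.9).

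Genes named are the 8 genes, up to 4 genes past the threshold with the largest change per list and comparison, well-known partners, 5 genes of like profile and paralogs. Part of what this rule selects is left out here, though counts over the lists include it. The 8 genes and the lists were chosen with earlier results of these data known, so they are no independent evidence of direction. Promoter windows came from RefSeq tables. Low counts, as of *Fdps*, limit precision.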

Additional observations from a re-analysis of the deposited data

How the results depend on the processing

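Over 20 alternatives, the calls of *Hmgcs1*, *Cyp51* and *Acat2* at WL1 and of *Hmgcs1*, *Idi1*, *Cyp51* and *Dhcr7* at WL2 were kept in all. Of the 8 genes, the number called was 3 to 5 at WL1 and 4 to 6 at WL2. Between WL1 and WL2 the number called, 0, became 1 without the filter and with the compared phases alone, 2 with DESeq2, and 0 to 2 when a library was left out. All genes called at WL1, 1350, became 844 with the replicate block, 2344 with DESeq2, 753 with limma without a filter, and 512 to 1500 without 1 library. At WL2 the 1853 became 1400 with the block, 2717 with DESeq2, 2331 with library totals, 1279 with limma without a filter, and 743 to 1688 without 1 library. For WL2 against WL1 the 681 became 1668 without the filter, 330 with the block, 1935 with DESeq2, 210 with limma without a filter, 1053 with the compared phases alone, and 37 to 1351 without 1 library.

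Values near 0 changed sign. *Sqle* at WL1 was 0.061 with library totals and ranged from -0.099 to 0.032 without 1 library. *Fdps* at WL1 ranged from -0.42 to 0.26 and *Srebf2* from -0.28 to 0.14 without 1 library. Without 1 library *Abca1* ranged from -0.043 to 0.15 at WL1 and from -0.14 to 0.052 at WL2, where it was 0.11 with library totals. From WL1 to WL2 *Srebf1* ranged from -0.0051 to 0.075 without 1 library, and *Scap* was 0.00026 with the filter on 3 libraries, 0.036 with upper quartile factors, 0.026 with library totals and -0.038 to 0.015 without 1 library. Library totals moved the median of all genes to 0.12 at WL1 and 0.16 at WL2, and the share of calls that were lower from 64.3% and 66.5% to 39.1% and 35.9%. With upper quartile factors that share fell from 64.5% to 51.7% for WL2 against WL1.

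Same-numbered libraries deviated together with r between -0.28 and 0.11, so the numbers were not taken to pair the samples. With the replicate block, 4, 5 and 0 of the 8 genes were called in the 3 comparisons. The cause of these changes was not tested. Where 1 library was left out, the number of libraries and the identity of the one left out changed together.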
